A study of Mus musculus with 18 samples.

Results

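The genes described here are 9 that sense RNA in the cytosol, relay that signal, or act on double-stranded RNA: *Ifih1*, *Dhx58*, *Mavs*, *Trim25*, *Tbk1*, *Ikbke*, *Zbp1*, *Eif2ak2* and *Adar*. They were chosen by gene symbol for this role, with earlier results of these data known. Of the 56748 genes listed in the count file, 9 are members. Each of the 9 passed the filter on low counts, as did 13691 genes in all. Their levels were measured by mRNA sequencing in RAW264.7 cells, a mouse macrophage line, in 6 conditions with 3 libraries each. Control cells received no agent. TBHQ cells were given 5 µM tert-butylhydroquinone, a phenolic antioxidant food additive, and were harvested after 4 h. LPS cells received 0.1 µg/mL lipopolysaccharide and PIC cells 20 µg/mL polyinosinic:polycytidylic acid, a double-stranded RNA mimic, each for 12 h. LPS+TBHQ and PIC+TBHQ cells had TBHQ for 4 h, then the stimulus for 12 h. The TBHQ stock was made in DMSO, and no vehicle is described for the cells without TBHQ. TBHQ, its vehicle and any difference in time in culture therefore cannot be told apart.

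When long double-stranded RNA enters the cytosol, the helicase MDA5, encoded by *Ifih1*, binds it and signals through MAVS on the mitochondrial membrane. The kinases TBK1 and IKKε (*Ikbke*) then phosphorylate the transcription factors that switch on type I interferon genes. Several sensors are themselves interferon-stimulated genes, and macrophages also meet double-stranded RNA through TLR3 and bacterial LPS through TLR4. No transfection of PIC is described. The paper states that PIC acts mainly through TLR3 and may also activate sensors in the cytosol. Which route PIC took in these cells was not tested.

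Of the macrophage markers, *Lyz2* had at least 61055 counts in every library, *Cd68* 10929, *Csf1r* 6539 and *Spi1* 5549, whereas *Mertk* had 0 to 5. Markers of T cells, B cells, fibroblasts and epithelial cells had at most 8 counts in a library, the highest being *Pdgfra* with 8, *Cd79a* with 7 and *Cd4* with 4. Of the dendritic cell genes, *Zbtb46* had 11 to 26 counts, *Flt3* at most 2 and *Siglech* 0. Libraries held 14423390 to 18851626 counts on genes, with a median of 15742337, and the deepest was a PIC library. Among the 9 genes the lowest count in a library was 127, for *Zbp1* with TBHQ, and the highest 18069, for *Trim25* with PIC. Levels are given as FPKM (fragments scaled to gene length and library size), computed from the deposited counts and gene lengths with TMM scaling, so that genes can be compared per length. Genes were called at an adjusted p below 0.05, from quasi-likelihood tests in edgeR adjusted over all tested genes by Benjamini-Hochberg (BH). Standard errors (SE) of log2 fold changes (log2FC) come from the replicates' log2 counts scaled to library size.

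In unstimulated cells the 9 levels spanned from 4.78 ± 0.555 FPKM (SD, n = 3) for *Ikbke* to 86.6 ± 2.22 for *Trim25*. *Eif2ak2* at 28.1 ± 0.158, *Tbk1* at 27.0 ± 0.234 and *Adar* at 25.9 ± 0.352 followed *Trim25*, then *Dhx58* at 17.0 ± 0.621, *Mavs* at 10.0 ± 0.275, *Ifih1* at 8.81 ± 0.442 and *Zbp1* at 4.91 ± 0.520. Only *Zbp1* and *Ikbke*, among neighbours in this order, had overlapping libraries. *Trim25* stayed highest in all 6 conditions, and *Mavs* was lowest in the LPS, PIC and PIC+TBHQ cells. In PIC cells *Zbp1* reached 38.5 ± 1.69 FPKM and stood behind *Trim25* and *Tbk1*, the latter at 42.4 ± 2.09, while *Adar*, *Dhx58* and *Eif2ak2* overlapped between 33.0 and 35.9. With LPS, *Eif2ak2*, *Adar*, *Zbp1* and *Dhx58* each overlapped the next in order, between 33.1 and 27.2 FPKM, as did *Ifih1* and *Ikbke*. *Mavs* and *Dhx58* overlapped after TBHQ alone, as did *Eif2ak2* and *Dhx58* with PIC+TBHQ. No neighbours overlapped with LPS+TBHQ, where *Zbp1* was last.

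**Figure D1:**
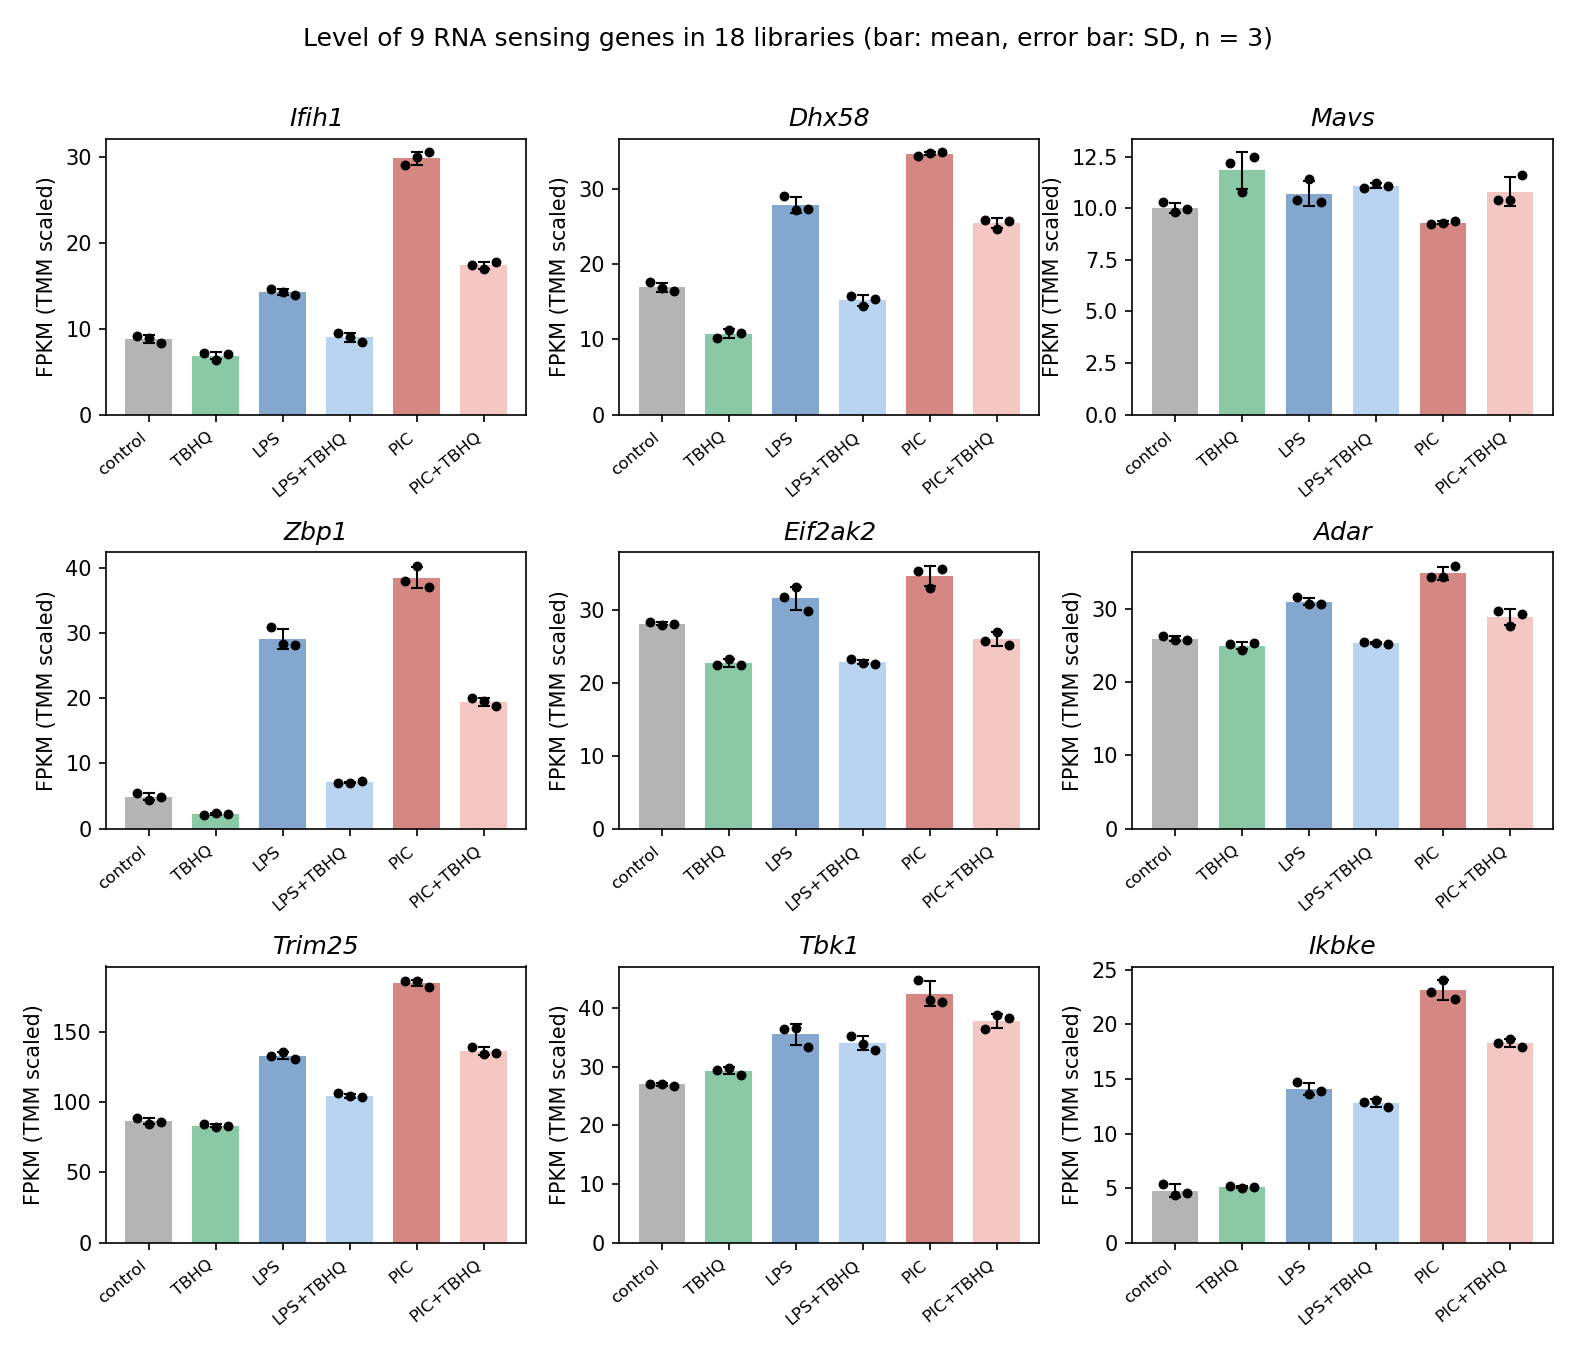
Level of each gene in the 18 libraries, in FPKM with TMM scaling, by condition. Bars are means, error bars the SD of 3 libraries and points the libraries. *Zbp1* lay at 28.2 to 30.9 with LPS and at 7.03 to 7.25 with LPS+TBHQ, while *Mavs* stayed between 9.26 and 12.5 in all conditions.

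The comparison of each stimulus with the control asks which of these genes the macrophages raised. LPS raised 8 of the 9 genes, where 24% of all tested genes were called higher and 24.1% lower. PIC also raised 8 of 9, against 28.6% called higher and 30.1% lower among all genes. The median log2FC of the 9 genes was 0.62 with LPS and 1.03 with PIC, and that of all tested genes was -0.004 and -0.015. *Mavs* was the gene not called in either. These comparisons share the control libraries. The harvest time of the control is not given clearly, and any difference in time in culture from the stimulated cells was not tested. At the stricter limit of an adjusted p below 0.01 and a log2FC above 2, *Zbp1* passed with LPS (1 of 9, against 1.34% of all genes), and *Zbp1* and *Ikbke* passed with PIC (2 of 9, against 2.70%).

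*Ifih1* (ENSMUSG00000026896, chromosome 2, 62426142 to 62476599, minus strand; positions are those of the gene annotation in the count file) encodes MDA5, which recognises long double-stranded RNA. Its control libraries measured 9.15, 8.96 and 8.31 FPKM, the LPS libraries 14.6, 14.3 and 14, and the PIC libraries 29.1, 30 and 30.6. The 3 conditions did not overlap, and PIC gave the highest values. *Ifih1* rose by a log2FC of 0.70 (SE 0.046, edgeR BH-adjusted p = 8.2e-15) with LPS and 1.76 (SE 0.047, edgeR BH-adjusted p = 2.4e-27) with PIC. *Dhx58* (ENSMUSG00000017830, chromosome 11, 100585710 to 100595097, minus strand) encodes LGP2, a helicase without signalling domains that modulates MDA5. Its control libraries measured 17.6, 16.8 and 16.4 FPKM, those with LPS 29.0, 27.2 and 27.3, and those with PIC 34.4, 34.7 and 34.9. Again no conditions overlapped. The log2FC was 0.71 (SE 0.043, edgeR BH-adjusted p = 6.6e-15) with LPS and 1.03 (SE 0.031, edgeR BH-adjusted p = 5.3e-20) with PIC.

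*Zbp1* (ENSMUSG00000027514, chromosome 2, 173048405 to 173060716, minus strand) encodes a sensor of left-handed Z-form nucleic acids that can engage RIPK3 and cell death. It was at 5.47, 4.44 and 4.82 FPKM in the control, 30.9, 28.3 and 28.2 with LPS, and 38.0, 40.3 and 37.1 with PIC. Its lowest stimulated library was thus far above its highest control library, and the PIC libraries lay above the LPS libraries. The rise was 5.94-fold with LPS (log2FC 2.57, SE 0.097, edgeR BH-adjusted p = 7.6e-28) and 7.84-fold with PIC (log2FC 2.97, SE 0.094, edgeR BH-adjusted p = 1.9e-30). These were the largest changes among the 9 genes.

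*Ikbke* (ENSMUSG00000042349, chromosome 1, 131182080 to 131207344, minus strand) and *Tbk1* (ENSMUSG00000020115, chromosome 10, 121382360 to 121422692, minus strand) encode related kinases of the interferon pathway. *Ikbke* measured 5.41, 4.35 and 4.58 FPKM in the control, 14.7, 13.6 and 13.9 with LPS and 23.0, 24.1 and 22.3 with PIC. It rose 2.94-fold with LPS (log2FC 1.56, SE 0.10, edgeR BH-adjusted p = 2.9e-23) and 4.84-fold with PIC (log2FC 2.28, SE 0.10, edgeR BH-adjusted p = 5.7e-29), without overlap. *Tbk1* rose less, by a log2FC of 0.39 (SE 0.044, edgeR BH-adjusted p = 2.0e-09) with LPS and 0.65 (SE 0.041, edgeR BH-adjusted p = 2.5e-15) with PIC. Per length, *Ikbke* was at 0.161 to 0.200 of *Tbk1* in the control libraries, 0.372 to 0.416 with LPS and 0.514 to 0.581 with PIC. *Tbk1* was the more abundant of this pair in every library.

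*Trim25* (ENSMUSG00000000275, chromosome 11, 88890202 to 88911119, plus strand), an interferon-responsive E3 ubiquitin ligase, was at 84.6 to 89.0 FPKM in the control, 130.5 to 135.7 with LPS and 182.2 to 186.4 with PIC. Its log2FC was 0.62 (SE 0.027, edgeR BH-adjusted p = 5.1e-19) and 1.09 (SE 0.024, edgeR BH-adjusted p = 1.0e-26). *Eif2ak2* (ENSMUSG00000024079, chromosome 17, 79159993 to 79190002, minus strand) encodes PKR, which halts translation through eIF2α when bound to double-stranded RNA. It rose by a log2FC of only 0.17 (SE 0.042, edgeR BH-adjusted p = 0.00101) with LPS and 0.30 (SE 0.034, edgeR BH-adjusted p = 7.6e-08) with PIC. Both calls ended with libraries scaled by their totals, where *Eif2ak2* was at 0.08 in each (BH-adjusted p = 0.118 and 0.074 in edgeR). *Adar* (ENSMUSG00000027951, chromosome 3, 89622329 to 89660753, plus strand) encodes ADAR1, which converts adenosine to inosine in double-stranded RNA and so limits sensing of the cell's own RNA. It rose by 0.26 (SE 0.017, edgeR BH-adjusted p = 1.1e-07) and 0.43 (SE 0.024, edgeR BH-adjusted p = 5.5e-13) on the log2 scale. The gene count does not separate the interferon-inducible long form of ADAR1 from the short form. *Mavs* (ENSMUSG00000037523, chromosome 2, 131075983 to 131089945, plus strand) measured 10.3, 9.82 and 9.96 FPKM in the control, 10.4, 11.4 and 10.3 with LPS and 9.26, 9.28 and 9.38 with PIC. Its log2FC was 0.09 (SE 0.053, edgeR BH-adjusted p = 0.275) with LPS and -0.11 (SE 0.023, edgeR BH-adjusted p = 0.170) with PIC, although the PIC libraries lay below the control. Scaled by library totals, *Mavs* was lower with PIC (log2FC -0.33, BH-adjusted p = 6.8e-05 in edgeR).

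Between the stimuli, PIC cells were higher than LPS cells in 8 of the 9 genes, where 14.9% of all tested genes were called higher and 12.8% lower. *Ifih1* differed most, with a log2FC of 1.06 (SE 0.027, edgeR BH-adjusted p = 5.6e-20), followed by *Ikbke* with 0.72 (SE 0.045, edgeR BH-adjusted p = 2.4e-14) and *Trim25* with 0.47 (SE 0.019, edgeR BH-adjusted p = 3.8e-15). *Zbp1*, *Dhx58*, *Tbk1*, *Adar* and *Eif2ak2* were higher by 0.14 to 0.40, and *Eif2ak2* had overlapping LPS and PIC libraries. Scaled by library totals, *Eif2ak2* (0.01, BH-adjusted p = 0.930 in edgeR) and *Adar* (0.04, 0.386) were not called, and *Eif2ak2* also lost its call without LPS replicate 3 or PIC replicate 3. *Mavs* was lower with PIC (log2FC -0.20, SE 0.049, edgeR BH-adjusted p = 0.0252). That call ended when LPS replicate 2 or any PIC library was left out, in DESeq2 and without the count filter. Over all alternatives of the *Mavs* value the adjusted p (BH) ran from 2.1e-04 to 0.165 and the log2FC from -0.33 to -0.15. The *Ifih1* to *Dhx58* ratio per length was 0.504 to 0.527 with LPS, near the control range of 0.506 to 0.532, and 0.847 to 0.876 with PIC.

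How TBHQ changed these genes was read from 3 comparisons that share no library: TBHQ with control, LPS+TBHQ with LPS, and PIC+TBHQ with PIC. These differ in the time since TBHQ was added. TBHQ cells were harvested after 4 h, and LPS+TBHQ and PIC+TBHQ cells after a further 12 h of stimulus. No cells had TBHQ alone at the later time. *Ifih1*, *Dhx58*, *Zbp1* and *Eif2ak2* were each lower and called in all 3. The share of all tested genes that were lower and called in all 3 is not given, so this describes these genes only. After 4 h of TBHQ alone, 4 genes were lower and 2 higher, where 14.8% of all tested genes were called lower and 14.2% higher. The median log2FC of the 9 genes was -0.05. None of the 9 passed the stricter limit of adjusted p and log2FC (0 in edgeR and 0 in DESeq2, with 6 at an unadjusted p below 0.05 in edgeR), against 0.190% of all genes in either direction. With LPS+TBHQ, 7 of 9 were lower than with LPS, against 12.2% of all genes lower and 11.7% higher. PIC+TBHQ had 8 of 9 lower and 1 higher than PIC, against 15.5% lower and 15.8% higher. The median of the 9 was -0.35 and -0.42, with 0.002 and 0.009 for all tested genes.

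*Zbp1* fell most. With TBHQ alone its libraries measured 2.10, 2.45 and 2.32 FPKM, all below the control, for a log2FC of -1.10 (SE 0.11, edgeR BH-adjusted p = 3.6e-12). With LPS+TBHQ they measured 7.05, 7.03 and 7.25, above the control libraries and far under the LPS libraries. This gave 0.244 of the LPS level (log2FC -2.03, SE 0.045, edgeR BH-adjusted p = 1.8e-24). With PIC+TBHQ they measured 20, 19.5 and 18.8, or 0.506 of the PIC level (log2FC -0.98, SE 0.044, edgeR BH-adjusted p = 3.3e-17), and did not overlap the PIC libraries. Relative to *Adar* per length, *Zbp1* was at 0.916 to 0.977 in LPS libraries and 0.277 to 0.287 in those of LPS+TBHQ. The PIC libraries had 1.03 to 1.18, and TBHQ before PIC gave 0.643 to 0.709.

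*Dhx58* was at 10.2, 11.3 and 10.8 FPKM with TBHQ alone. LPS+TBHQ cells had 15.7, 14.4 and 15.4, and PIC+TBHQ cells 25.9, 24.7 and 25.7. Each set lay below its reference libraries without overlap, and the LPS+TBHQ libraries also lay below the control. The log2FC was -0.65 (SE 0.051, edgeR BH-adjusted p = 3.7e-12) with TBHQ, -0.87 (SE 0.049, edgeR BH-adjusted p = 1.5e-16) in LPS cells and -0.45 (SE 0.023, edgeR BH-adjusted p = 1.1e-09) in PIC cells. *Ifih1* was at 7.17, 6.41 and 7.10 FPKM with TBHQ alone, 9.49, 9.04 and 8.47 in LPS+TBHQ cells and 17.5, 17.0 and 17.8 in PIC+TBHQ cells. It fell in each case, by 0.35 (SE 0.066, edgeR BH-adjusted p = 1.2e-06), 0.67 (SE 0.051, edgeR BH-adjusted p = 1.1e-13) and 0.78 (SE 0.028, edgeR BH-adjusted p = 2.2e-16) on the log2 scale, again without overlap. The *Ifih1* to *Dhx58* ratio per length was higher with TBHQ alone, at 0.569 to 0.702 against 0.506 to 0.532 in the control. It was also higher with TBHQ in LPS cells, at 0.550 to 0.628 against 0.504 to 0.527. In PIC cells it was lower with TBHQ, at 0.676 to 0.693 against 0.847 to 0.876.

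*Eif2ak2* fell by 0.31 on the log2 scale with TBHQ alone (SE 0.020, edgeR BH-adjusted p = 3.8e-07), by 0.47 in LPS cells (SE 0.044, edgeR BH-adjusted p = 3.6e-11) and by 0.42 in PIC cells (SE 0.045, edgeR BH-adjusted p = 4.6e-10). Its LPS+TBHQ libraries, at 22.6 to 23.2 FPKM, lay below the control libraries at 27.9 to 28.3. *Adar* and *Trim25* were not called with TBHQ alone, at -0.05 each, and were lower in the stimulated cells. *Adar* fell by 0.29 with LPS+TBHQ (SE 0.014, edgeR BH-adjusted p = 4.4e-08) and 0.27 with PIC+TBHQ (SE 0.039, edgeR BH-adjusted p = 1.0e-07). *Trim25* fell by 0.35 (SE 0.020, edgeR BH-adjusted p = 1.9e-11) and 0.44 (SE 0.020, edgeR BH-adjusted p = 2.9e-14), and its PIC+TBHQ libraries at 134.6 to 139.6 FPKM overlapped the range of the LPS libraries.

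Of the kinases, *Ikbke* with PIC+TBHQ measured 18.3, 18.7 and 17.9 FPKM, all below the PIC libraries (log2FC -0.34, SE 0.037, edgeR BH-adjusted p = 5.5e-07). With LPS+TBHQ it measured 12.9, 13.1 and 12.4, a difference of -0.14 (SE 0.040, edgeR BH-adjusted p = 0.0395). *Tbk1* was lower with PIC+TBHQ (log2FC -0.17, SE 0.048, edgeR BH-adjusted p = 0.00267), a call that ended with libraries scaled by their totals (-0.10, BH-adjusted p = 0.0803 in edgeR). Its LPS and LPS+TBHQ libraries overlapped (log2FC -0.06, SE 0.052, edgeR BH-adjusted p = 0.364). With TBHQ alone *Tbk1* was higher by 0.12 (SE 0.019, edgeR BH-adjusted p = 0.0407). The kinase ratio *Ikbke* to *Tbk1* was 0.469 to 0.502 with PIC+TBHQ, under the PIC range, and 0.366 to 0.385 with LPS+TBHQ, overlapping the LPS range.

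*Mavs* went the other way. It measured 12.2, 10.8 and 12.5 FPKM with TBHQ alone, above every control library (log2FC 0.24, SE 0.069, edgeR BH-adjusted p = 0.00434). With PIC+TBHQ it measured 10.4, 10.4 and 11.6, above every PIC library (log2FC 0.22, SE 0.055, edgeR BH-adjusted p = 0.0119). The LPS+TBHQ libraries at 11, 11.2 and 11.1 overlapped the LPS libraries (log2FC 0.05, SE 0.049, edgeR BH-adjusted p = 0.625). The ratio *Ifih1* to *Mavs* per length was 3.14 to 3.26 in PIC cells and 1.53 to 1.68 where TBHQ came before PIC. In LPS cells it was 1.26 to 1.41, and 0.765 to 0.861 where TBHQ came before LPS. The calls for *Ikbke* with LPS+TBHQ, *Tbk1* with TBHQ or PIC+TBHQ, and *Mavs* with PIC+TBHQ did not hold in every alternative. Their adjusted p (BH) ran over the alternatives from 0.0166 to 0.189, from 0.0254 to 0.138, from 6.2e-04 to 0.0803 and from 9.4e-04 to 0.122. The values of all 4 kept their sign.

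**Figure D2:**
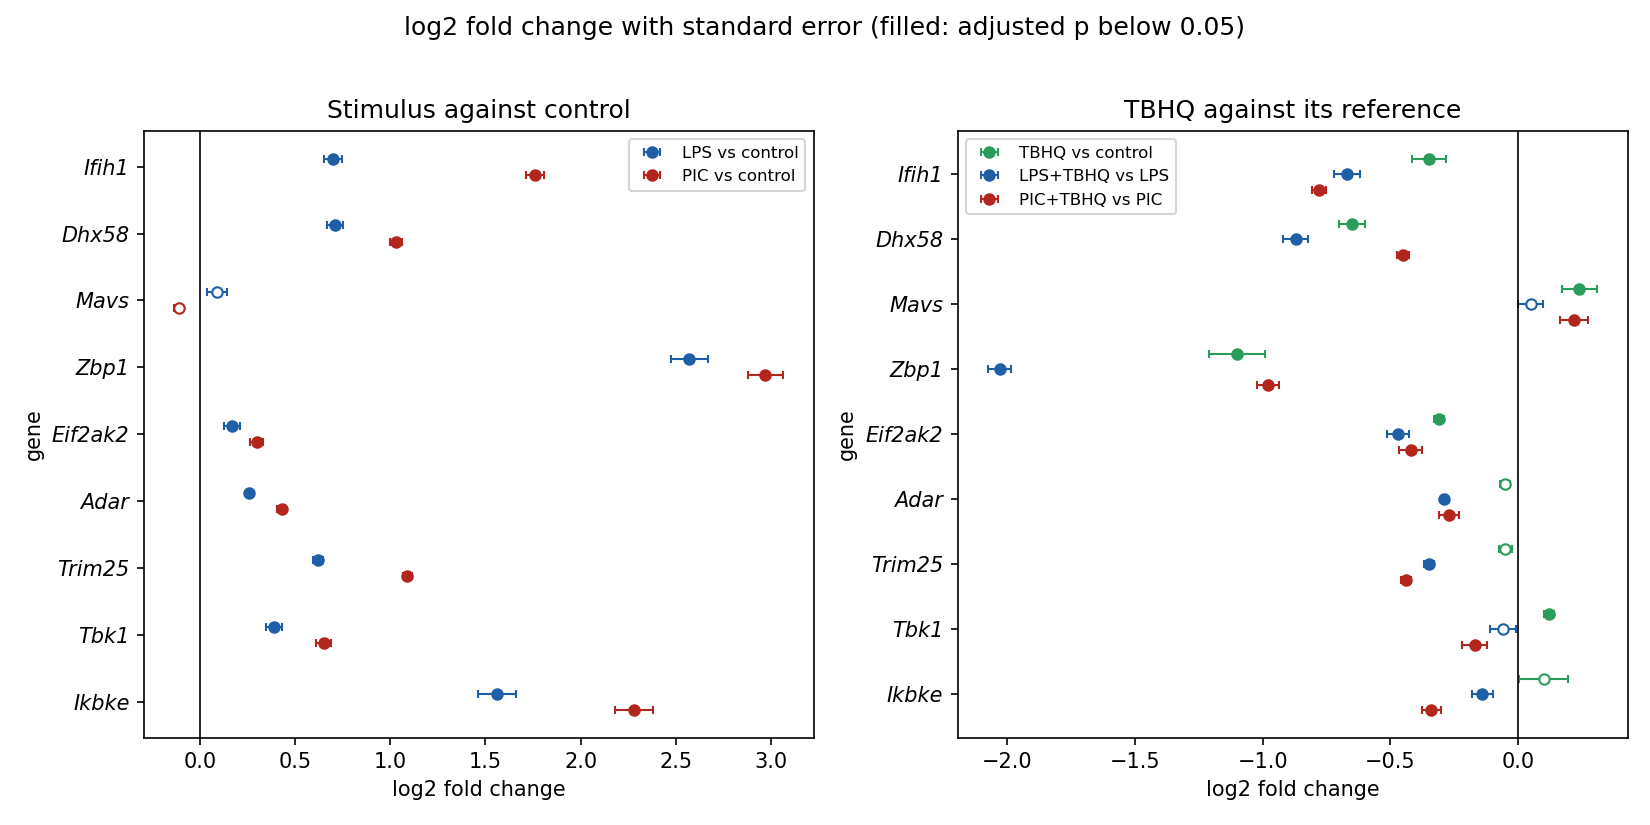
Change of each gene on the log2 scale, with SE, for LPS and PIC against the control (left) and for TBHQ against its own reference without TBHQ (right). Filled points have an edgeR BH-adjusted p below 0.05. *Zbp1* lies at -2.03 for LPS+TBHQ against LPS and at -0.98 for PIC+TBHQ against PIC, and *Mavs* is the gene to the right of 0 in all 3 comparisons with TBHQ.

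Whether TBHQ acted differently on the LPS and PIC responses was tested by the difference between these 2 effects. *Zbp1* and *Dhx58* were called, 2 of 9, where 0.825% of all tested genes were called in that direction and 1.01% in the other. Those shares come from 113 and 138 of 13691 genes. The counts were 104 and 253 of 7293 genes with an adjusted p in DESeq2, 53 and 89 of 11137 in limma on log2(FPKM + 1), and 52 and 69 of 11137 on log2(FPKM + 0.1). When each library was left out in turn, the first count ran from 72 (without LPS replicate 3) to 115 (without LPS replicate 2). The second ran from 86 (without LPS+TBHQ replicate 2) to 239 (without LPS replicate 2). TBHQ lowered *Zbp1* less in PIC than in LPS cells, by a difference of 1.05 on the log2 scale (SE 0.063, edgeR BH-adjusted p = 3.9e-11), and *Dhx58* less by 0.43 (SE 0.054, edgeR BH-adjusted p = 1.3e-04). For *Ifih1* the difference was -0.11 (SE 0.058, edgeR BH-adjusted p = 0.500), and for *Ikbke* -0.20 (SE 0.055, edgeR BH-adjusted p = 0.135), with an unadjusted p of 0.0059 in edgeR. The other 5 genes had differences of -0.11 to 0.16, and none passed. In the treated cells, PIC+TBHQ was above LPS+TBHQ in 8 of 9 genes, where 11.9% of all genes were called higher and 8.39% lower. This count fell to 6 with scaling by library totals, where *Eif2ak2* (0.10, BH-adjusted p = 0.0753 in edgeR) and *Tbk1* (0.07, 0.300) were not called. *Tbk1* also lost its call without LPS+TBHQ replicate 3 or PIC+TBHQ replicate 2. The difference was 1.45 for *Zbp1* (SE 0.028, edgeR BH-adjusted p = 5.5e-20), 0.96 for *Ifih1* (SE 0.051, edgeR BH-adjusted p = 5.5e-18) and 0.75 for *Dhx58* (SE 0.045, edgeR BH-adjusted p = 1.8e-14), and *Mavs* at -0.04 (SE 0.054, edgeR BH-adjusted p = 0.774) was not called.

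Other genes of the pathway were followed in lists of 80 genes, of which 75 were tested. The lists too were chosen with earlier results of these data known. Not tested were *Zcchc3*, *Rnf125*, *Nlrp4e*, *Adarb2* and *Ifnb1*, which had 0 to 12 counts. Over all lists 35 genes were higher and 16 lower with LPS than in the control, where 24% of all tested genes were higher and 24.1% lower. With PIC 39 were higher and 17 lower, where 28.6% of all were higher and 30.1% lower. With TBHQ, 7 were higher and 20 lower in LPS cells (11.7% and 12.2% of all tested genes), 11 higher and 30 lower in PIC cells (15.8% and 15.5%), and 18 higher and 23 lower in unstimulated cells (14.2% and 14.8%). The counts by list below are read against these shares. The medians over the 75 genes were 0.11, 0.16, -0.03, -0.08 and 0.00 in that order.

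Among 17 other sensors and cofactors, 5 were higher and 8 lower with LPS and 6 higher and 7 lower with PIC. *Ddx60*, an interferon-induced helicase, rose by 0.57 with LPS (SE 0.12, edgeR BH-adjusted p = 7.6e-07) and 1.13 with PIC (SE 0.10, edgeR BH-adjusted p = 2.4e-14). *Zc3hav1*, which encodes the antiviral zinc finger protein ZAP, rose by 1.00 with PIC, while *Trim65* fell by 0.60. *G3bp1*, a stress granule gene, fell by 0.61 with LPS and *Dhx9* by 0.58. In cells with TBHQ, *Ddx60* fell by 0.87 with LPS (SE 0.093, edgeR BH-adjusted p = 7.4e-10) and 0.75 with PIC (SE 0.045, edgeR BH-adjusted p = 2.1e-09). *Tlr3*, the endosomal receptor for double-stranded RNA, measured 3.43 ± 0.0727 FPKM (SD, n = 3) in LPS cells and 4.04 ± 0.311 in PIC cells. TBHQ before the stimulus gave 2.31 ± 0.204 and 2.55 ± 0.0351, a fall of 0.57 and 0.66 on the log2 scale. *G3bp1* was higher by 0.24 with LPS+TBHQ, and *Zc3hav1* fell by 0.28 with PIC+TBHQ. In this list TBHQ gave 4 higher and 3 lower with LPS and 1 higher and 6 lower with PIC. TBHQ alone gave 6 higher and 5 lower. Among the lower were *Ddx60* (log2FC -0.78, SE 0.10, edgeR BH-adjusted p = 5.9e-08) and *Tlr3* (-0.56, SE 0.14, edgeR BH-adjusted p = 6.0e-05), which thus also fell without a stimulus.

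Among 21 adaptors, kinase partners and downstream factors, 11 were higher and 3 lower with LPS, and 11 higher and 5 lower with PIC. *Irf7* encodes an interferon regulatory factor that these kinases activate. It stood at 60.0 ± 2.86 FPKM (SD, n = 3) in control cells, 171.3 ± 7.24 after LPS and 198.4 ± 3.51 after PIC. TBHQ before the stimulus gave 65.9 ± 1.44 in LPS cells and 118.0 ± 4.59 in PIC cells. It rose by 1.51 and 1.73 with the stimuli and, with TBHQ, fell by 1.38 in LPS cells (SE 0.040, edgeR BH-adjusted p = 6.4e-25) and 0.75 in PIC cells (SE 0.035, edgeR BH-adjusted p = 5.3e-18). The difference between these TBHQ effects was 0.63 (SE 0.053, edgeR BH-adjusted p = 3.6e-10), in the same direction as that of *Zbp1*. Of the 75 tested genes of all lists, 3 were called higher for this difference and 2 lower. Among all tested genes the shares were 0.825% and 1.01%. *Traf5* rose by 1.07 and 1.24, and *Ticam1*, the adaptor of TLR3 and TLR4, by 0.92 and 1.23. With TBHQ, 1 gene of this list was higher and 7 lower in LPS cells, with *Irf5* down by 0.42 and *Tank* by 0.23, and 4 were higher and 8 lower in PIC cells, with *Tank* down by 0.38 and *Ticam1* by 0.37. TBHQ alone gave 6 higher and 7 lower, with *Irf7* down by 0.48 (SE 0.045, edgeR BH-adjusted p = 7.1e-12). *Irf3* was not called with LPS (log2FC -0.03) and was lower with PIC (-0.15, SE 0.042, edgeR BH-adjusted p = 0.0395). With TBHQ, *Irf3* was higher in PIC cells (0.20, SE 0.039, edgeR BH-adjusted p = 0.0117) and not called in LPS cells (0.14) or unstimulated cells (-0.10).

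Of 22 inhibitors, 12 were higher and 3 lower with LPS, and 14 higher and 2 lower with PIC. *Tnfaip3*, which encodes the ubiquitin-editing enzyme A20, rose by 1.92 with LPS (SE 0.038, edgeR BH-adjusted p = 5.4e-28) and 3.24 with PIC (SE 0.026, edgeR BH-adjusted p = 1.0e-35). *Dtx4* rose by 0.62 and 0.89, and *Ube2l6*, the ISG15 conjugating enzyme, by 0.61 and 0.77. With TBHQ, 1 inhibitor was higher and 5 lower in LPS cells, and 3 higher and 10 lower in PIC cells. *Ube2l6* fell by 0.97 and 0.48 and *Tnfaip3* by 0.53 and 0.83, in LPS and PIC cells. *Marchf5* fell by 0.23 in LPS cells, and *Nlrx1*, a mitochondrial NOD-like receptor, was higher by 0.51 in PIC cells (SE 0.048, edgeR BH-adjusted p = 0.00105). The differences between the TBHQ effects were 0.49 for *Ube2l6* (SE 0.045, edgeR BH-adjusted p = 9.9e-07) and -0.30 for *Tnfaip3* (SE 0.043, edgeR BH-adjusted p = 0.00142). TBHQ alone gave 4 inhibitors higher and 6 lower. *Ube2l6* fell there by 0.60 (SE 0.037, edgeR BH-adjusted p = 3.4e-13), while *Tnfaip3* was higher by 0.14 (SE 0.050, edgeR BH-adjusted p = 0.0381).

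The 4 partners of ZBP1 in cell death were higher with LPS and with PIC. *Mlkl*, the pore-forming effector of necroptosis, rose by 1.14 and 1.40, *Casp8* by 0.49 and 0.61 and *Casp6* by 0.28 and 0.46. With TBHQ, *Mlkl* fell by 0.47 in LPS cells (SE 0.044, edgeR BH-adjusted p = 9.0e-10) and 0.37 in PIC cells (SE 0.055, edgeR BH-adjusted p = 5.0e-08), and *Casp8* by 0.31 and 0.36. *Ripk3*, whose kinase ZBP1 engages, was higher by 0.23 in PIC cells (SE 0.045, edgeR BH-adjusted p = 0.00135). TBHQ alone lowered 2 of the 4 and raised 0. *Casp8* fell by 0.33 (SE 0.052, edgeR BH-adjusted p = 5.8e-05) and *Mlkl* by 0.16 (SE 0.044, edgeR BH-adjusted p = 0.0247).

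Among 9 genes around PKR and eIF2α, 3 were higher and 2 lower with LPS, and 4 higher and 3 lower with PIC, close to the shares of all tested genes (24% and 24.1% with LPS, 28.6% and 30.1% with PIC). *Atf4* rose by 0.75 and 0.88 and *Ppp1r15a*, which encodes the stress-induced eIF2α phosphatase subunit, by 0.67 and 1.08. *Ddit3* rose by 0.58 with LPS, and *Eif2ak4* fell by 0.36 with PIC. With TBHQ alone, *Ddit3* fell by 1.29 and *Ppp1r15a* by 0.80, and *Atf4* was at 0.00. In stimulated cells with TBHQ, *Ppp1r15a* fell by 0.50 in LPS cells and 0.57 in PIC cells, *Atf4* by 0.26 and 0.30, and *Ddit3* by 0.37 in LPS cells, while *Eif2ak3* was higher by 0.25 in PIC cells (SE 0.079, edgeR BH-adjusted p = 0.0127). In this list 1 gene was higher and 3 lower in LPS cells with TBHQ, and 2 higher and 4 lower in PIC cells. Of the other RNA editing enzymes, *Adat1* was higher with TBHQ alone by 0.48 (SE 0.13, edgeR BH-adjusted p = 0.00152) and lower with PIC than with LPS by 0.35. *Adarb1*, at 0.296 to 0.418 FPKM as condition means, was not called in any of the 8 comparisons.

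The genes with the most similar pattern over the 6 conditions were found by the root mean square difference of their centred mean log2 levels, among 10451 genes with a mean of at least 50 counts. This distance grows with the size of a gene's changes and is not compared between the 9 genes. For *Ifih1* these were *Slfn2* (0.119), *Gbp7* (0.132) and *Dcbld2* (0.146), and for *Dhx58* they were *Sp100* (0.0699), *Xaf1* (0.0705) and *Trim34a* (0.0711). *Zbp1* was nearest *Cd40* (0.312), *Gbp3* (0.326) and *Isg20* (0.339). *Ikbke* was nearest *Cdc42ep2* (0.103), *Prkg2* (0.106) and *Gm7993* (0.120). *Mavs* was nearest *Hdac4* (0.0175), *Tor4a* (0.0245) and *Ing5* (0.0256), and *Tbk1* nearest *Rnf11* (0.0165), *Samd4b* (0.0239) and *Lasp1* (0.0284). *Adar* was nearest *Ly96* (0.0273), *Ngly1* (0.0341) and *Dtwd1* (0.0360), *Trim25* nearest *Pstpip1* (0.0400), *Gramd1a* (0.0523) and *Klf6* (0.0568), and *Eif2ak2* nearest *Pcgf5* (0.0441), *Snrnp35* (0.0484) and *Mitd1* (0.0517).

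RefSeq promoters (GRCm38.p6) were available for 7 of the 9 genes, in 9 windows of 250 bases before a start, and not for *Dhx58* and *Zbp1*. They were searched on both strands for a core of the interferon-stimulated response element (GAAANNGAA), of NF-κB sites (GGNNTTTCC) and of the antioxidant response element (TGACNNNGC), which 7.13%, 4.93% and 10.2% of all 32851 windows held. The interferon core was found in a window of *Ifih1*, *Adar* and *Trim25*, and the antioxidant core in that of *Mavs* as TGACTGCGC. The *Trim25* match, TTCAGTTTC, ends at the base before its RefSeq start and lies in an exon of the GENCODE annotation. The *Adar* match, GAAAAGGAA, lies before start 3, and the first bases after that start were found in no GENCODE transcript of *Adar*. The windows before its other 2 starts held no core. No window of the 7 genes held the NF-κB core, which says no more than that these letters are not in the windows. The *Ifih1* window, at chr2:62646256-62646505 (minus strand), is printed as the example of a match, in capitals. Among windows with none of the 3 cores, that of *Eif2ak2* lies wholly in GENCODE exons, as do 216 bases of *Adar* window 2 and 43 of *Ikbke*. For *Tbk1* too, the first bases after the start were found in no GENCODE transcript. A match is a description of letters, not a site or a cause.
Ifih1: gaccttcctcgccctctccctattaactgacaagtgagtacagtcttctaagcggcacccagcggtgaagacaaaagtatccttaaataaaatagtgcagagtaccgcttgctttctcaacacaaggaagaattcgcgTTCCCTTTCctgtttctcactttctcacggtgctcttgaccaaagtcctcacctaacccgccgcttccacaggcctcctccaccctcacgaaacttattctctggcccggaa

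At 4 loci a gene of another name is annotated on the opposite strand. *Adar* overlaps *Chrnb2* on the opposite strand over 7252 bases, and 14.4% of its 50-base words in GENCODE transcripts also occur in another gene, mostly *Chrnb2*, which had at most 239 counts. *Dhx58* overlaps the antisense *Dhx58os* (at most 18 counts), *Ikbke* overlaps *Gm28913* (at most 59) and *Gm28914* (at most 28), and *Eif2ak2* overlaps a 5S ribosomal RNA copy (at most 3). Shared words made up at most 2.90% of the other 8 genes, with 2.88% for *Eif2ak2* (most with *Gm26637*), 2.35% for *Tbk1* (*Gm37612*) and 0.295% for *Trim25* (*Mdm2*), and 0 for *Ifih1*, *Mavs* and *Zbp1*. The study describes strand-specific libraries, its labels name directional as well as non-directional ones, and neither gives a strand setting for the counting. If strand was not used, reads of a gene and its antisense partner cannot be told apart.

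The scale matters for the smaller changes. When libraries were scaled by their totals and not by TMM, the median log2FC of all tested genes shifted to -0.232 for PIC against control and -0.138 for PIC against LPS. Against these medians *Eif2ak2* was at 0.08 with PIC (BH-adjusted p = 0.074 in edgeR, from 1.3e-12 to 0.074 over all alternatives) and at 0.01 for PIC against LPS (0.930, from 0.00359 to 0.930), and *Adar* at 0.04 for PIC against LPS (0.386, from 1.4e-06 to 0.386). The whole-transcriptome split moved from 3283 higher and 3306 lower to 2454 and 4558 for LPS, from 3917 and 4120 to 2379 and 6635 for PIC, and from 2035 and 1752 to 985 and 4373 for PIC against LPS. For LPS+TBHQ against LPS it moved from 1601 and 1673 to 2061 and 1401, and for PIC+TBHQ against PIC from 2167 and 2118 to 3398 and 1436. For PIC+TBHQ against LPS+TBHQ it moved from 1623 and 1149 to 890 and 2582, and for the difference between TBHQ effects from 113 and 138 to 235 and 74. *Zbp1*, *Ifih1*, *Dhx58*, *Trim25* and *Ikbke* kept their direction with the stimuli at this scale, and the first 4 of these kept their direction and call with TBHQ in stimulated cells.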

How the data were processed

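RNA of RAW264.7 cells in 6 conditions was sequenced by a commercial provider, with 3 biological replicates each. Reads were aligned there with HISAT2 2.0.5, processed with StringTie 1.3.3b and counted with featureCounts 1.5.0-p3, and the authors deposited raw counts per gene, with gene lengths. The authors also deposited FPKM, used here only in alternatives and without further scaling. The library size these values imply is 0.896 to 1.061 of the count total, 1 factor per library, so they are not scaled by that total alone. The genome build is given as GRCm38/mm39, and the files' positions differ from those of GRCm38. Library totals were 14423390 to 18851626 counts.

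Counts were tested in R 4.3.3 with edgeR 4.0.16 (filterByExpr, TMM, glmQLFit and glmQLFTest, 1 coefficient per condition over 18 libraries) with Benjamini-Hochberg adjustment over 13691 genes. The code was run on simulated counts first. Alternatives were DESeq2 1.42.0, RLE size factors, total library size, other filters, the groups compared alone, a replicate block, limma 3.58.1 on log2(FPKM + 1) and log2(FPKM + 0.1), a log2FC limit of 1, and leaving out each library. Log2 levels used a prior count of 2. Tables and plots used Python 3.11.15. Named genes were the 9 members, up to 3 called genes per list with the largest change in each of 4 comparisons (LPS or PIC with control, LPS+TBHQ with LPS, PIC+TBHQ with PIC), and the 3 nearest genes of each member. *Adat1*, *Adarb1*, *Irf3*, the untested genes and values with TBHQ alone for list genes were named after their values were seen. Differences between TBHQ effects printed for list genes also fall outside this naming rule. The members and lists were chosen with earlier results of these data known. 1 gene of the lists is not reported here.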

Additional observations from a re-analysis of the deposited data

Results flagged for a closer look

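The effect of TBHQ differed between the LPS and the PIC response for *Zbp1* and *Dhx58*. For *Zbp1*, TBHQ changed the level by -2.03 (log2FC) in LPS cells and -0.98 in PIC cells, a difference of 1.05 (SE 0.063, edgeR BH-adjusted p = 3.9e-11). Without 1 library at a time the difference was 1.00 to 1.07, and over the other fits 0.93 to 1.09. For *Dhx58* the changes were -0.87 and -0.45, a difference of 0.43 (SE 0.054, edgeR BH-adjusted p = 1.3e-04), with 0.39 to 0.45 without 1 library at a time and 0.39 to 0.47 over the other fits. In both genes all 3 LPS+TBHQ libraries lay below all 3 LPS libraries, and all 3 PIC+TBHQ libraries below all 3 PIC libraries.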

How the results depend on the processing

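Of 72 member tests (9 genes in 8 comparisons), 57 kept direction and side of the threshold in all 9 other fits and without each of the 18 libraries, and 15 did not. No called test reversed. The difference between TBHQ effects for *Adar*, not called at 0.02, ran from -0.01 to 0.04 without 1 library, with values at or just under 0 without LPS replicate 1 (-0.00), PIC replicate 1 (-0.01), PIC replicate 2 (-0.01) or PIC+TBHQ replicate 1 (-0.00). The cause was not tested. With a log2FC limit of 1 in place of 2, 1 gene passed with TBHQ, 2 with LPS and 5 with PIC. This looser limit lets more genes pass by construction. How many of all tested genes pass it is not given, so these counts describe the 9 genes only and show no excess over other genes. Total library size ended the calls of *Eif2ak2* for LPS or PIC against control (0.08 each), PIC against LPS (0.01) and PIC+TBHQ against LPS+TBHQ (0.10), of *Adar* for PIC against LPS (0.04), of *Tbk1* for PIC+TBHQ against PIC (-0.10) and PIC+TBHQ against LPS+TBHQ (0.07), and of *Ikbke* for LPS+TBHQ against LPS (-0.11), and gave a call for *Mavs* with PIC (-0.33). *Tbk1* with TBHQ lost its call without any control library, TBHQ replicate 1 or TBHQ replicate 2 (0.10 to 0.12), in both limma fits and without the filter. *Ikbke* with LPS+TBHQ lost it without any LPS+TBHQ library or LPS replicate 1 or 3 (-0.15 to -0.11), in both limma fits and without the filter. *Mavs* with PIC+TBHQ lost it without PIC replicate 1 (0.20) or PIC+TBHQ replicate 3 (0.16). *Eif2ak2* for PIC against LPS lost it without LPS replicate 3 (0.10) or PIC replicate 3 (0.12), and *Tbk1* for PIC+TBHQ against LPS+TBHQ without LPS+TBHQ replicate 3 or PIC+TBHQ replicate 2 (0.13 each). *Ikbke* with TBHQ was called only without control replicate 1 (0.20), and *Trim25* for the difference between TBHQ effects only in DESeq2 (-0.11). Same-numbered replicates showed no strong shared deviation (2 of 45 pairs had r over 0.1, from -0.0719 to 0.142). Such a cut cannot exclude a weak pairing. With the replicate block the members called numbered 6, 8, 8, 7, 9, 9, 8 and 2 in the 8 comparisons, the counts without it, and 0, 1 and 2 past the stricter limit against control.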
